A study of Homo sapiens with 12 samples.

Results

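Ribosome biogenesis factors are the proteins that transcribe, trim, modify, fold and assemble ribosomal RNA (rRNA) into ribosomal subunits, and this account follows the mRNAs of 42 of them. They were chosen by name, as nucleolar and ribosome assembly genes, and 40 had a row among the 57134 genes of the deposited table. The other 2, BOP1 and PES1, were not analysed here. MATQ-seq, which amplifies total RNA, was used for all 12 libraries, and all came from HCT116, an established line of human colon carcinoma cells. The groups compared were 2 mini-bulk and 4 single-cell libraries treated with scDASH, in which Cas9 cuts rRNA-derived sequence before sequencing, called DASHed, and 2 mini-bulk and 4 single-cell libraries left untreated. No other treatment or genotype separates them, the labels do not say how many cells a mini-bulk library holds, and no separate cultures are named. The p-values therefore speak only to the spread among these libraries, and that spread may be technical. A single-cell library holds the RNA of 1 cell.

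Library totals were 837614 and 1087711 estimated counts in DASHed mini-bulk, 5803180 and 6026584 in untreated mini-bulk, 1018874 to 1573651 in DASHed cells and 5545355 to 6008358 in untreated cells. The 40 members together held 2671 to 5681 counts in a mini-bulk library and 3364 to 10409 in a single cell. Counting error alone is therefore large for the scarcer members, and a count of 0 allows up to 3 counts, which is 0.498 to 3.58 CPM (a count scaled to a common library total) depending on the library. As a check of the labels, RNA18S4, an 18S rRNA gene, took 11.8 and 10.4% of counts in DASHed mini-bulk libraries 1 and 2 against 23.4 and 21.5% in untreated ones. Of 6 epithelial markers, 3 to 6 had counts in each library, with VIL1 at 0 or 1 count throughout, and of 7 markers of other cell types CD3E, COL3A1, ALB and HBB were at 0 in all 12 libraries, while the other 3 summed with them to 0 to 29.4 CPM. In mini-bulk that sum was 29.4 and 15.5 CPM after depletion and 4.26 and 5.11 CPM without it, mostly COL1A1, and its part in the results was not tested.

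Ribosome assembly begins in the nucleolus, where RNA polymerase I makes a long precursor of the rRNAs. Small nucleolar ribonucleoproteins (snoRNPs) guide its methylation (box C/D) and pseudouridylation (box H/ACA), a large complex called the small-subunit processome folds and cuts its first part, and further factors build the large subunit and ripen the small one in the nucleus and cytoplasm. Proliferating carcinoma cells make these proteins in quantity, and MYC, which binds the letters CACGTG (an E-box), is a known activator of many of their genes.

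The members as a whole took a larger share of all counts after depletion and in mini-bulk about the same share of the counts left when rRNA and the lincRNA genes inside 18S rRNA were set aside. In mini-bulk they took 0.340 and 0.319% of all counts in DASHed libraries 1 and 2, against 0.0843 and 0.0979% in untreated libraries 1 and 2. The means were 0.329% ± 0.0148 and 0.0911% ± 0.00961 (SD, n = 2 each), a ratio of 3.62. Both DASHed values lay above both untreated ones, with p = 0.333 in a two-sided exact permutation test, the lowest value open to 2 against 2 libraries. Outside rRNA genes alone the means were 0.428 and 0.171%, a ratio of 2.50. Outside rRNA genes and 4 lincRNA genes that lie inside 18S rRNA genes, the share was 0.593 and 0.515% against 0.594 and 0.549%, a ratio of 0.969 (exact permutation p = 0.667), and here the groups overlapped. A share depends on every other RNA in the library, so the first ratio is not an amount of mRNA gained.

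**Figure D1:**
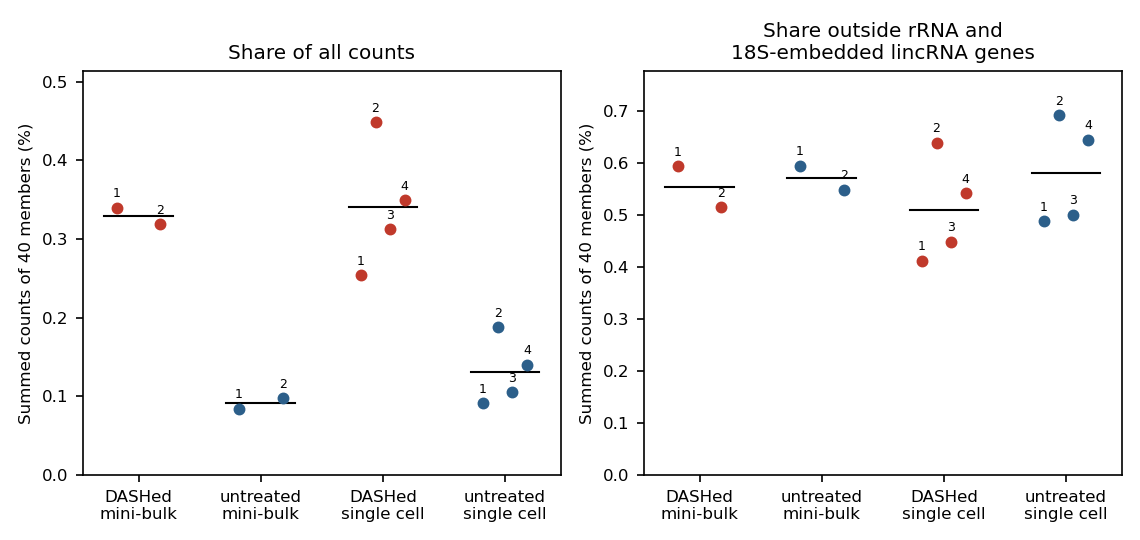
Summed counts of the 40 members as a percentage of all counts (left) and of counts outside rRNA and the lincRNA genes inside 18S rRNA (right), 1 point per library with its replicate number, a bar for the group mean and an axis from 0. On the left both DASHed mini-bulk libraries lie above both untreated ones (0.340 and 0.319% against 0.0843 and 0.0979%); on the right the mini-bulk groups overlap, and cells 2 and 4 are the highest in both single-cell groups.

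Against the other genes of the same libraries, the members split. Of 40 members, 39 passed the filter on low counts in mini-bulk, and at an edgeR adjusted p of 0.05 on TMM-scaled counts 6 rose and 15 fell. Among all 10083 genes tested 9.9% rose, 19.8% fell and 29.7% did either. The risers were FBL, NHP2, NOL6, NOB1, RRP12 and RRP1B, and the fallers NPM1, NCL, GNL3, NOP58, DKC1, UTP4, UTP15, UTP20, HEATR1, WDR75, NOL11, DDX10, DDX18, DDX21 and BRIX1. The members' median was -0.84 in log2, against 0.03 over all genes tested. That gap depended on the filter: with no filter on low counts the medians were -0.80 for the members and -0.78 over all 27180 genes. The wider background adds the scarce genes that the filter removes, whereas 39 of the 40 members pass it. These directions are relative to the TMM scale, which sets most genes level between libraries. With scaling to total counts alone the median of all genes was 2.04 and that of the members 1.18, with 22 of 39 members higher and 0 lower where 66.6% of all genes were higher and 1.37% lower. Under that scaling NCL, NOP58, DKC1, UTP4, UTP20, HEATR1, DDX18 and BRIX1 lay above 0, and the other 7 fallers stayed below 0 without passing the threshold.

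The members that rose and those that fell differed in base composition, which the choice by name did not use. For 3 that rose and 3 that fell, picked after their values were seen, the stretch of coding sequence closest in GC content to its whole reading frame is shown with G and C in capitals, so that the difference can be read from the letters. Each is a 90-base stretch of the principal GENCODE v29 transcript (GRCh38), printed 5′ to 3′ in reading frame. The risers shown are those with the highest transcript GC content, so the letters show a wide contrast. Among those not shown, RRP1B, which rose, had 50.6%, and UTP4, which fell, had 48.8%.
FBL: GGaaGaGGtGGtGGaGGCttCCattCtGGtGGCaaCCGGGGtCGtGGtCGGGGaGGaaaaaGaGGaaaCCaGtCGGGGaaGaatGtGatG
NOL6: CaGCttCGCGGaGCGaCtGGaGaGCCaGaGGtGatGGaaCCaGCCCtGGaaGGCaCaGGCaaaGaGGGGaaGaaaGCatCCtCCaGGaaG
RRP12: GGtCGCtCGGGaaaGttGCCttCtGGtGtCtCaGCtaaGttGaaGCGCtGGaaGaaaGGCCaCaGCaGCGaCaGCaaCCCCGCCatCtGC
NOL11: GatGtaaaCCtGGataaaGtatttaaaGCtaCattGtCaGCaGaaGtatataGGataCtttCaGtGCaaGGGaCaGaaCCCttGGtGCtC
WDR75: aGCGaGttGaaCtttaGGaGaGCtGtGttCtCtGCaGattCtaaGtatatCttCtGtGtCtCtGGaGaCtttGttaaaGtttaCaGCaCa
UTP15: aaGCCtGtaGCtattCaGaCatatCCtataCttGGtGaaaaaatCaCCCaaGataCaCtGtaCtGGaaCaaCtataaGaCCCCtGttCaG
The FBL gene lies on chromosome 19 (39834458 to 39846414), NOL6 on chromosome 9 (33461441 to 33473930), RRP12 on chromosome 10 (97356358 to 97426076), NOL11 on chromosome 17 (67717833 to 67744531), WDR75 on chromosome 2 (189441433 to 189475565) and UTP15 on chromosome 5 (73565443 to 73583377). Their whole reading frames held 57.7, 59.9 and 58.9% G and C for FBL, NOL6 and RRP12, and 39.9, 39.7 and 40.2% for NOL11, WDR75 and UTP15. At the last position of codons, where most changes leave the protein as it is, the values were 58.3, 68.0 and 73.5% against 35.5, 36.0 and 32.6%. The FBL stretch lies in the part of the gene that codes for its glycine- and arginine-rich N-terminal region.

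Of the 4 nucleolar scaffold and shuttling proteins, 3 fell and NOLC1 did not pass. Beside this and the role groups that follow, 19.8% of all genes tested fell and 9.9% rose. NPM1, the abundant nucleolar chaperone nucleophosmin, stood at 24.3 and 18.6 TMM-scaled CPM in DASHed mini-bulk libraries 1 and 2, against 117 and 97.7 without depletion. It fell by 2.31 in log2 (SE 0.23, edgeR adjusted p = 0.000278). Of 45 pseudogene copies of NPM1 23 had counts. In untreated mini-bulk they summed to 13.1 and 15.2 counts beside 309 and 311 for NPM1 itself, and after depletion to 0 in both libraries. Their part in the difference was not tested. NCL, nucleolin, an RNA-binding protein of the nucleolus, had 65.4 and 60.5 CPM against 137 and 134 (log2 fold change -1.1, SE 0.17, edgeR adjusted p = 0.00248). GNL3, the GTP-binding protein nucleostemin, fell by 2.15 (SE 0.34, edgeR adjusted p = 0.0028), from 36.3 and 46.2 to 7.16 and 11.6 CPM. In each of these the DASHed libraries lay clear of the untreated ones, as they also did for NOLC1 and other members that did not pass. NOLC1, a phosphoprotein that shuttles between nucleolus and cytoplasm, had 137 and 141 CPM against 121 and 122, a log2 fold change of 0.19 (SE 0.16, edgeR adjusted p = 0.372).

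Of the box C/D proteins, which work as 1 particle, FBL rose and NOP58 fell. FBL, fibrillarin, the methyltransferase of the particle, had the highest level of all members per kilobase of transcript, 58.1 CPM per kilobase in untreated and 469 in DASHed mini-bulk (unscaled CPM). On the TMM scale it had 304 and 244 CPM after depletion and 142 and 132 without it, a rise of 1.0 in log2 (SE 0.17, edgeR adjusted p = 0.00332). NOP58, a structural partner of FBL, fell by 1.48 (SE 0.24, 0.00289), from 56.3 and 56.2 to 21.0 and 19.2 CPM. NOP56, the paralogue of NOP58 in the same particle, had 81.6 and 61.6 against 104 and 72.6 CPM, groups that overlapped (log2 fold change -0.29, SE 0.23, edgeR adjusted p = 0.362). GC contents of the principal transcripts were 57.9% for FBL, 56.0% for NOP56 and 41.3% for NOP58. RRP9, which binds the U3 snoRNA of the processome, had the highest GC content of all members, 60.9%, and a log2 fold change of 0.63 that did not pass (SE 0.27, edgeR adjusted p = 0.103).

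Of the box H/ACA proteins 1 fell and 1 rose. DKC1, dyskerin, the pseudouridine synthase, fell by 1.25 (SE 0.28, edgeR adjusted p = 0.0114), with 27.7 and 17.4 CPM against 59.7 and 49.0. NHP2, a small RNA-binding subunit, had 24.3 and 17.4 CPM against 8.69 and 5.34. It rose by 1.59 (SE 0.43, 0.0229), the largest rise among the members, and it is uncertain because 27.4% of its exonic bases overlap RMND5B on the opposite strand and the handling of strand is not given in the sources used here. GAR1, a further subunit, had a log2 fold change of -1.88 that did not pass (SE 0.67, edgeR adjusted p = 0.0615). NOP10, the smallest of the 4, was too scarce to test, with 6 and 0 estimated counts in the DASHed libraries and 9 and 8 in the untreated ones.

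Of the 11 members in the small-subunit processome 7 fell and 1, NOL6, rose. Their median GC content was 42.3% and their median log2 fold change -0.85. Of all genes tested under 45% GC, 52.1% fell, at a median of -1.63. NOL11, a subunit of the part of the processome that also acts in rRNA transcription, fell by 2.46 (SE 0.42, edgeR adjusted p = 0.0038), from 50.6 and 51.2 to 13.8 and 4.07 CPM. UTP15 of the same subcomplex had 2.39 and 1.16 against 9.45 and 10.1 CPM, a log2 fold change of -2.39 (SE 0.63, 0.0216). WDR75, also of that subcomplex, had 3.82 and 3.49 against 21.2 and 17.3 CPM, a log2 fold change of -2.37 (SE 0.45, 0.00574). These 3 showed the largest log2 falls among the members, and their transcripts are among the poorest in GC, at 39.0 to 41.0%. The ranking rests on few counts, and NPM1, at -2.31, lay close behind. In DASHed libraries 1 and 2 NOL11 had 29 and 7 counts, UTP15 5 and 2, and WDR75 8 and 6. DDX10, an RNA helicase, fell by 2.16 (SE 0.56, edgeR adjusted p = 0.0193), from 12.5 and 16.3 to 1.91 and 4.65 CPM. UTP4, a WD-repeat protein of the subcomplex of NOL11, had 110 and 106 against 183 and 153 CPM, the highest of this group in the untreated libraries, and fell by 0.64 (SE 0.17, 0.0215). UTP20 and HEATR1, long scaffold proteins, fell by 1.26 and 0.81 (edgeR adjusted p = 0.0123 and 0.0406). The rise in NOL6, a nucleolar protein of the processome, was 0.60 (SE 0.19, edgeR adjusted p = 0.0452), with 107 and 142 against 78.2 and 85.8 CPM. WDR43, NOP14 and DDX47 did not pass, with log2 fold changes of -0.75, 0.55 and -0.85.

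Of the 6 members that act in late maturation of the small subunit 2 rose and none fell. NOB1, the endonuclease that cuts the last spacer from 18S rRNA, had 115 and 66.8 CPM against 56.3 and 44.6, a rise of 0.86 (SE 0.27, edgeR adjusted p = 0.0402). RRP12, a factor of pre-ribosome export, had 93.5 and 87.2 against 49.5 and 65.7 CPM, a rise of 0.65 (SE 0.21, 0.0415). Both pairs of libraries were clear of the untreated ones, as were those of BYSL, TSR1 and LTV1 below. Of the exonic bases of NOB1, 20.3% overlap a gene on the opposite strand. BYSL, PNO1, TSR1 and LTV1, further assembly factors of the small subunit, had log2 fold changes of 0.89, -0.93, -0.84 and -1.77 and did not pass.

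Of the 11 large-subunit assembly factors analysed, 3 fell and 1 rose. DDX21, a helicase that also acts in rRNA transcription, stood at 19.6 and 13.4 CPM against 77.1 and 80.8, a log2 fold change of -2.24 (SE 0.25, edgeR adjusted p = 0.000553). DDX18, a related helicase, fell by 1.96 (SE 0.37, 0.00581) and BRIX1, an early assembly factor, by 0.99 (SE 0.30, 0.0366). RRP1B, a nucleolar protein of pre-rRNA processing, rose by 0.67 (SE 0.18, edgeR adjusted p = 0.0228), with 105 and 117 against 64.6 and 74.5 CPM. NOP2, an rRNA cytosine methyltransferase, had 98.3 and 47.1 against 65.0 and 48.7 CPM, groups that overlapped (log2 fold change 0.37, SE 0.32, edgeR adjusted p = 0.399), and it shares 54.4% of its exonic bases with AC006064.6 on the same strand. The other 6 (WDR12, NOP16, DDX56, RRS1, EBNA1BP2 and NIP7) had log2 fold changes from -1.35 to 0.57 and did not pass.

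**Figure D2:**
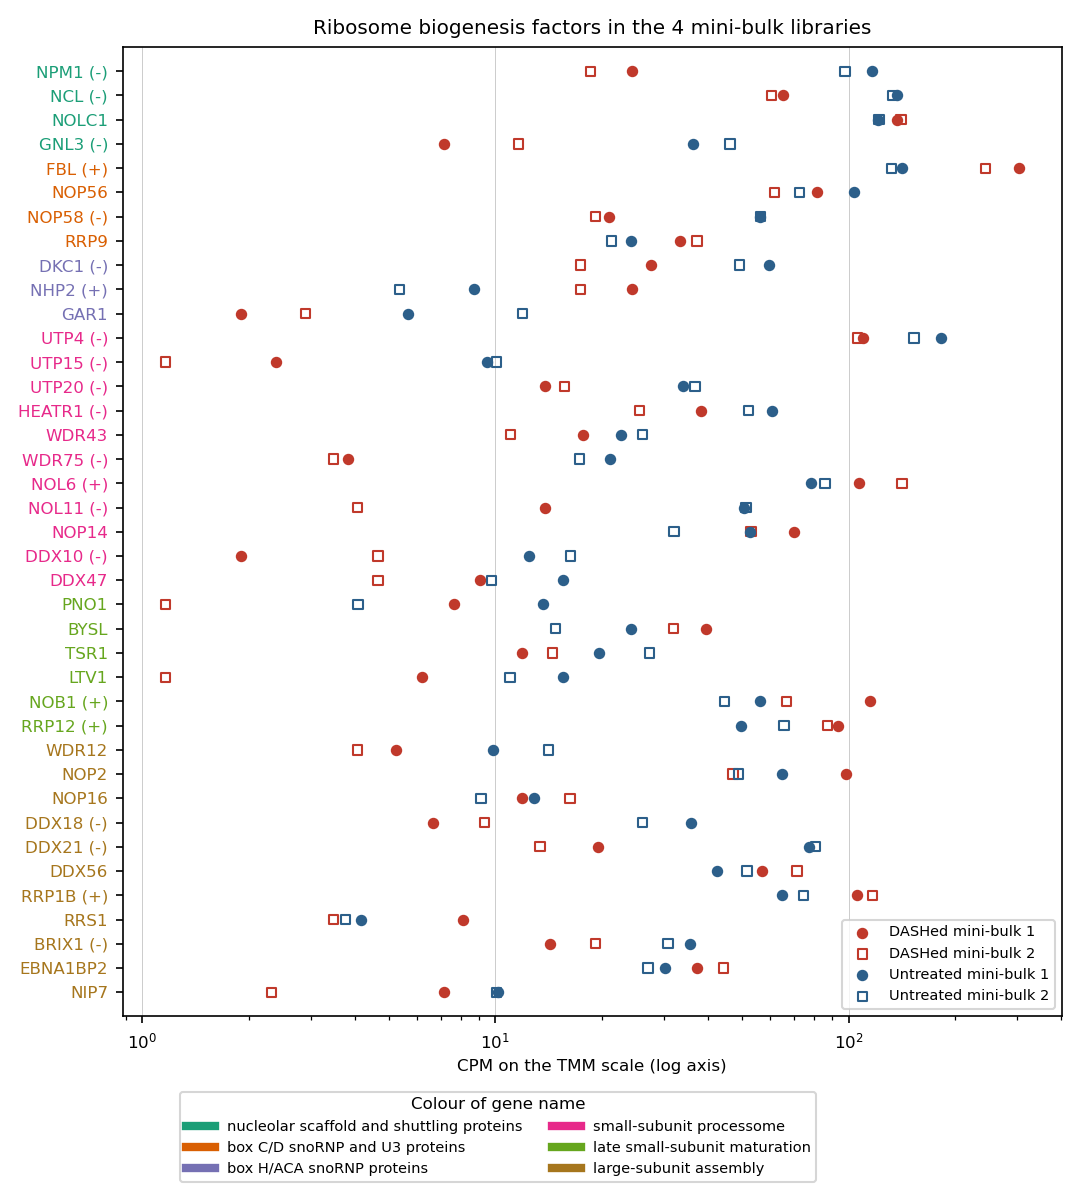
CPM on the TMM scale (log axis) of the 39 tested members in the 2 DASHed (red) and 2 untreated (blue) mini-bulk libraries, 1 point per library, with gene names coloured by role and (+) or (-) after those that rose or fell at an edgeR adjusted p of 0.05. NPM1, NOL11, WDR75 and DDX21 lie far to the left after depletion, and FBL and NHP2 to the right.

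Members rich in GC were those that stood higher after depletion, as among all genes. Across the 39 tested members Spearman's rho between GC content and log2 fold change was 0.856, and across 10053 tested genes with a GC value it was 0.79. These are descriptions across genes, which share the same 4 libraries and are not independent replicates. Of the 18 members under 45% GC, 12 fell and 0 rose, with a median log2 fold change of -1.63, and the median of all 2883 tested genes in that range was also -1.63, with 52.1% of them lower and 0.208% higher. Of the 10 members with 55% GC or more, 4 rose and 0 fell, with a median of 0.61 against 0.76 for all 3643 such genes, of which 23.6% rose and 0.357% fell. Between these bounds 2 of 11 rose and 3 fell, with a median of 0.19 against -0.13 for all such genes, of which 3.66% rose and 13.6% fell. With a correction for GC content in each library 2 members rose and 1 fell, and the median was -0.02 against 0.03 over all genes, of which 1.76% rose and 2.29% fell under that correction. The 2 were RRP1B (0.79, SE 0.19, edgeR adjusted p = 0.0473) and NOLC1 (0.74, SE 0.16, 0.0334), and the 1 was NPM1 (-0.89, SE 0.21, 0.0499). Of the genes called without the correction, NOP58, UTP20, HEATR1, NOL6, RRP12 and BRIX1 lay on the other side of 0 after the correction, and FBL, at 0.37, did not pass (0.292). The members' median without the correction also leaned on single libraries. It was -1.01 and -0.36 without DASHed replicates 1 and 2, and -0.65 and -0.98 without untreated replicates 1 and 2. The medians of all genes were -0.24, -0.13, 0.10 and 0.02 in the same order.

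**Figure D3:**
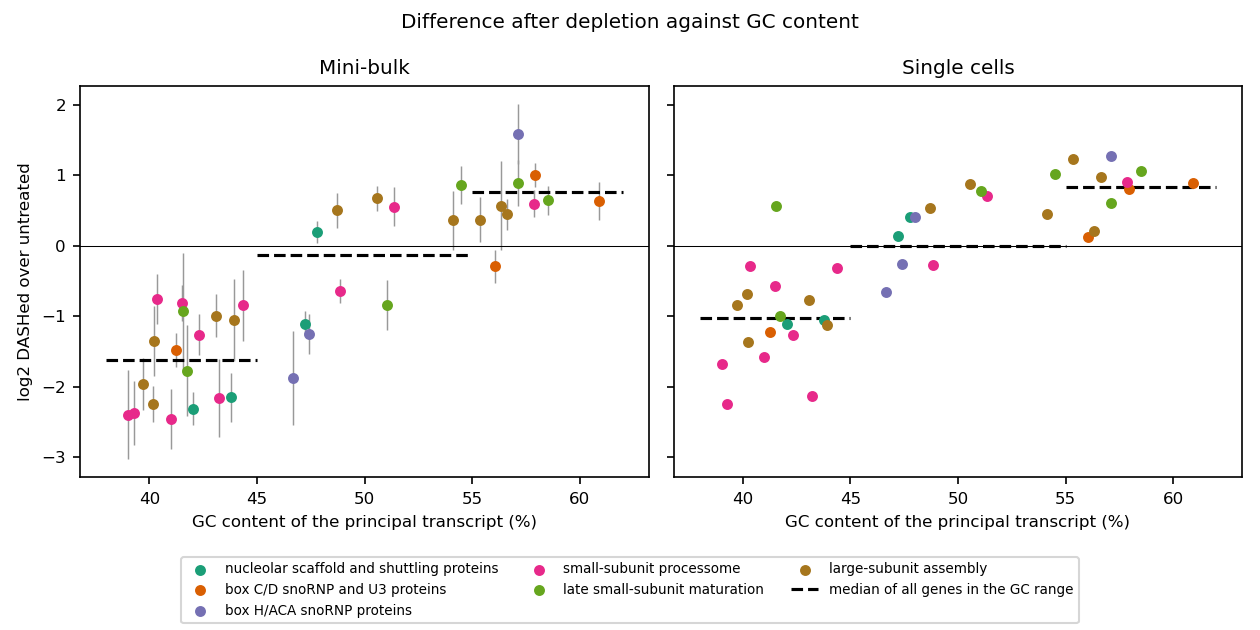
log2 DASHed over untreated against the GC content of the principal transcript, for the 39 members tested in mini-bulk (left, TMM scale, bars are the edgeR SE) and the 40 members in single cells (right, summed counts relative to the median of all genes, no error shown); dashed lines are medians of all genes under 45%, from 45 to 55% and over 55% GC. Members under 45% GC sit around the median of all such genes in both inputs (-1.63 in mini-bulk, -1.03 in single cells).

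Further properties of the members were snoRNA genes, length and overlap with other genes. Of 8 members that carry snoRNA genes on the same strand of their gene body, 5 fell and 0 rose, at a median GC content of 45.5%. Of the 31 tested members without snoRNA genes 10 fell and 6 rose, at 47.8%. Among all genes tested 19.8% fell and 9.9% rose, at a median GC content of 51.0%. Whether snoRNA genes play a part was not tested. Transcript length had a Spearman's rho of -0.223 with the log2 fold change over the 39 members and -0.217 over all tested genes. Another gene covers 10% or more of the exonic bases of 13 members, which are uncertain on that account: NHP2, HEATR1, NOP14, DDX47, PNO1, TSR1, LTV1, NOB1, NOP2, NOP16, RRS1, EBNA1BP2 and NIP7. Without these 13, 4 of 26 tested members rose (15.4%) and 14 fell (53.8%), beside the same shares of all genes.

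A further list of ribosome biogenesis genes outside the 42 was set beside them. Of 84 named, 83 had a row and 79 were tested, of which 7 rose (8.86%) and 21 fell (26.6%). Among all genes tested 9.9% rose and 19.8% fell. The median of the list was -0.25 in log2, against 0.03 over all genes tested. The largest falls were those of EFL1, a GTPase of the last step of large-subunit maturation (-4.14, SE 0.79, edgeR adjusted p = 0.00574), RSL24D1 (-3.31, SE 0.90, 0.0234) and NMD3, the export adaptor of the large subunit (-3.25, SE 0.59, 0.00473). The largest rises were those of PPAN (1.47, SE 0.38, edgeR adjusted p = 0.0192), NOP53 (1.30, SE 0.19, 0.00196) and NOC4L (1.08, SE 0.24, 0.0105). GC contents were 35.8 to 45.1% in these 3 that fell and 63.2 to 64.8% in these 3 that rose. After depletion the 3 that fell stood near 0 on the TMM scale, with few counts behind their fold sizes. In DASHed libraries 1 and 2 EFL1 had 0.477 and 0.581 CPM, RSL24D1 1.43 and 0, and NMD3 1.91 and 1.16.

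The number of members seen at equal depth differed little between the groups. With each mini-bulk library thinned to 837450 counts, 40 and 39 members had at least 1 count after depletion, and 39 in each untreated library (exact permutation p = 1). With 5 counts or more there were 37 and 35 against 34 and 33, which did not overlap (exact permutation p = 0.333, the smallest possible). With rRNA and the lincRNA genes inside 18S rRNA left out before thinning, the order turned, to 36 and 35 against 39 and 39 members at 5 counts. In single cells thinned to 1018815 counts, 37 to 39 members were seen in DASHed cells and 36 to 39 in untreated ones.

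In single cells, NHP2, NOP2, RRP12 and NOB1 stood highest after depletion relative to other genes, and WDR75, DDX10, UTP15 and NOL11 were among the lowest. These libraries carry no test, because each group counts as 1 sample. Levels are non-rRNA CPM for cells 1 to 4 in order. Their total leaves out rRNA and the lincRNA genes inside 18S rRNA. Folds are ratios of summed counts with nothing added, divided by the median ratio of all 13509 genes with at least 20 counts. That median was taken with 1 CPM added and was 2.20-fold higher after depletion. The log2 ratios, and the counts of members past 2-fold, have 1 CPM added throughout. The intervals are exact, Poisson-based 95% intervals of counting error only. The members' median log2 ratio was -0.07, with 4 of 40 more than 2-fold above the median of all genes and 11 more than 2-fold below it, where 12.7% and 23.8% of all genes were. That background holds scarcer genes, whereas 39 of the members had at least 100 counts. Among all 8757 genes with at least 100 counts, whose median was 0.40, 1596 lay above these bounds and 1381 below. The sign of the members' median depended on the reference and on single cells: it was 0.25 as a mean over same-numbered cells, 0.05 without DASHed cell 1, 0.13 without DASHed cell 3 and 0.01 without untreated cell 2. It was -0.43 on the non-rRNA scale with no centring.

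NHP2, the H/ACA subunit, was highest of all, at 131, 218, 95.3 and 224 non-rRNA CPM in DASHed cells and 74.3, 116, 44.2 and 114 in untreated ones, a relative fold of 2.52 (2.23 to 2.86). NOP2, the methyltransferase, had 119, 119, 130 and 35.5 against 70.6, 59.1, 56.8 and 29.2, a fold of 2.51 (2.14 to 2.95). RRP12 had 120, 102, 150 and 191 against 101, 59.8, 76.5 and 138, a fold of 2.17 (1.91 to 2.46). In these 3, and in NOB1 and DDX56, each DASHed cell lay above the untreated cell of its number. NOB1 had 224, 284, 205 and 287 against 149, 199, 125 and 175, a fold of 2.06 (1.87 to 2.27). DDX56, a large-subunit helicase, had 244, 127, 56.0 and 317 against 171, 95, 46.5 and 204, a fold of 2.02 (1.81 to 2.26). Its log2 ratio with 1 CPM added was 0.98, so it is not among the 4 members counted as past 2-fold. The transcripts of these 5 hold 54.5 to 58.5% G and C.

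WDR75 stood at 4.90, 7.0, 3.74 and 32.6 non-rRNA CPM in DASHed cells and 48.3, 75.1, 23.7 and 203 in untreated ones, a relative fold of 0.198 (0.143 to 0.269). DDX10 had 1.23, 9.80, 0 and 0.99 against 9.28, 42.5, 1.58 and 17.9, and its fold of 0.176 (0.0783 to 0.348) rests on 9 against 98 counts. UTP15 had 2.45, 5.60, 13.1 and 2.96 against 62.2, 10.6, 34.7 and 19.5, a fold of 0.292 (0.18 to 0.455). All 3, and NOL11, also fell in mini-bulk. In these 3, NOL11 and WDR12 the DASHed cell was the lower of every same-numbered pair. NOL11 had 33.1, 88.2, 12.1 and 36.5 against 134, 256, 90.7 and 136, a fold of 0.331 (0.275 to 0.396). WDR12, a WD-repeat partner of BOP1 and PES1 in large-subunit assembly, had 12.3, 19.6, 0.93 and 2.96 against 16.7, 68.4, 8.68 and 8.12, a fold of 0.378 (0.243 to 0.57). Their GC contents run from 39.0 to 43.2%.

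Same-numbered cells showed these directions one by one. Of the 39 members with at least 100 counts, 9 were higher in the DASHed cell of all 4 pairs on the non-rRNA scale, against 17.1% of all 8757 such genes, and 20 were lower in all 4, against 24.3%. FBL had log2 ratios of 0.48, 0.47, 0.49 and 0.50 in pairs 1 to 4. NPM1 had -1.35, -2.17, -2.10 and -1.39. NOP58 had -1.25, -3.72, -2.36 and -1.75, so the C/D snoRNP partners FBL and NOP58 lay on opposite sides in every pair, as in mini-bulk. Across the 40 members Spearman's rho of GC content and the relative log2 ratio was 0.841, and over 13475 genes 0.696, in the same 8 libraries. Members under 45% GC had a median of -1.08 against -1.03 for all such genes, and members over 55% GC had 0.89 against 0.83.

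Cells differed from one another in ways that the DASHed and untreated libraries of 1 number shared. The summed share of the members outside rRNA and the lincRNA genes inside 18S rRNA was 0.412, 0.639, 0.448 and 0.542% in DASHed cells 1 to 4 and 0.488, 0.691, 0.50 and 0.645% in untreated cells 1 to 4. The order of the cells, 2, 4, 3 and 1 from the top, was the same in both. The DASHed library had the lower share in all 4 pairs, with a ratio of means of 0.878, whereas of all counts and of counts outside rRNA alone the ratios were 2.60 and 1.60. The labels do not say whether libraries of 1 number come from the same cell, but over 8757 genes their departures from the group mean correlated at 0.917 to 0.927, so the 4 untreated libraries may repeat the cells of the DASHed ones and are not taken as further cells. The highest library bore the same number in both groups for 28 of the 39 members with at least 100 counts, where it did for 81.1% of all such genes. Cell 2 held the maximum of 10 of these members, cell 4 of 9, cell 1 of 5 and cell 3 of 4.

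Some members had most of their counts in 1 cell of the 4. DDX47, a processome helicase, had 34.3, 1.40, 0 and 7.89 non-rRNA CPM in DASHed cells and 65.9, 1.99, 1.58 and 1.62 in untreated ones, with cell 1 at the top of both. It is uncertain, because 36.5% of its exonic bases overlap APOLD1 on the same strand. NOP10 had 33.1, 0, 3.74 and 0.99 against 22.3, 0.66, 4.73 and 0, again with cell 1 highest. RRS1, a large-subunit factor, had 0, 5.60, 14.0 and 76.0 against 4.64, 6.64, 19.7 and 85.3, with cell 4 highest. NIP7, a factor of large-subunit maturation, had 9.80, 23.8, 0 and 1.97 against 12.1, 63.8, 1.58 and 0.81, with cell 2 highest. WDR12, given above, was also highest in cell 2. Among the more abundant members the spread was uneven. NCL, at 381, 515, 317 and 467 against 477, 545, 457 and 552, had a maximum 1.62 times its minimum in DASHed cells and 1.21 times in untreated ones (each with 1 CPM added). For FBL these were 3.65 and 3.68 times, and for UTP4 4.97 and 3.13 times.

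**Figure D4:**
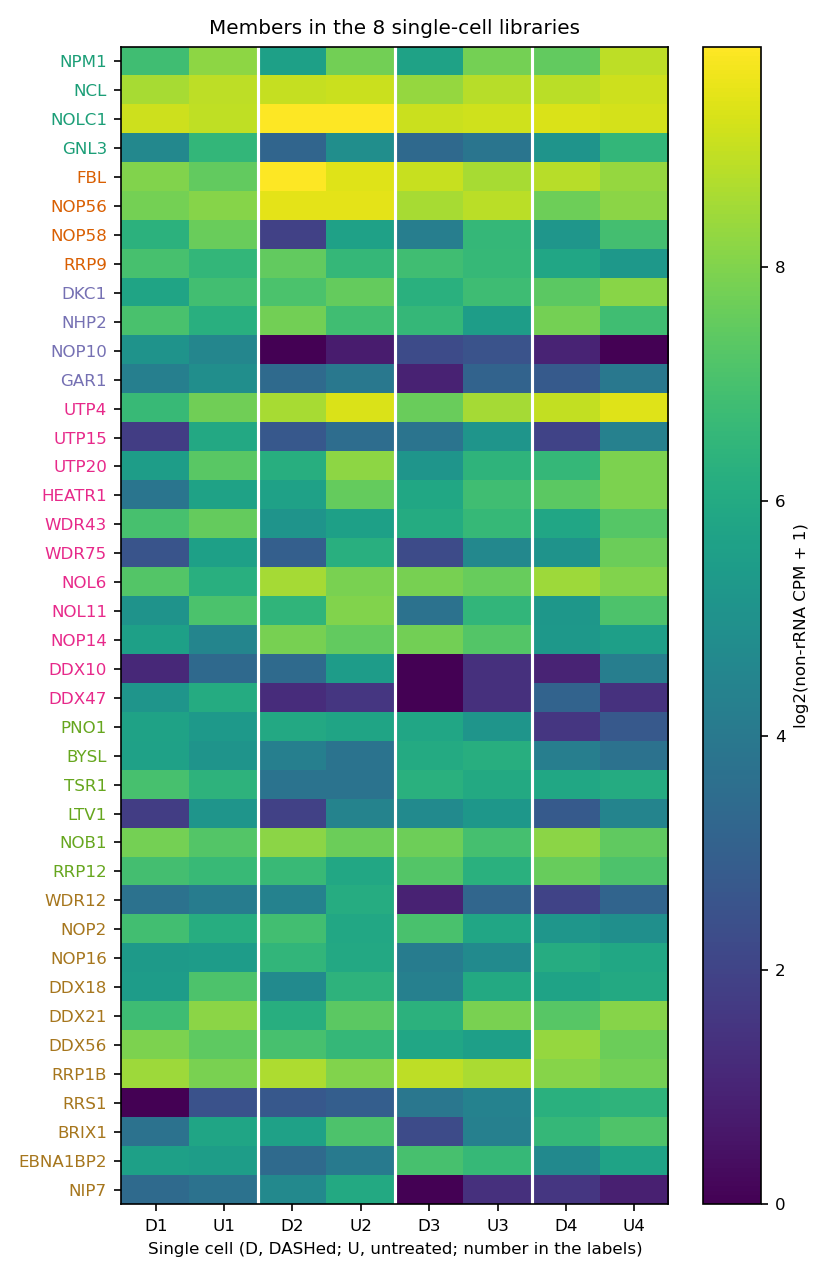
log2(non-rRNA CPM + 1) of the 40 members in the 8 single-cell libraries, with DASHed (D) and untreated (U) libraries of 1 number side by side and gene names coloured by role as in the plot of mini-bulk values. Libraries of 1 number resemble each other across the members, as in RRS1 (0 to 76.0 in D1 to D4, 4.64 to 85.3 in U1 to U4), and FBL and NOP56 are highest in cell 2.

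An E-box stood in the promoters of some members, a feature that neither the choice by name nor the counts used. RefSeq promoter windows (GRCh38.p14), from 250 bases before to 50 bases after the transcription start, were matched by symbol for 34 members, and were searched for the E-box CACGTG, which reads the same on both strands. It was present in 16 of 34 members (47.1%), in 21 of 72 genes of the further biogenesis list (29.2%) and in 1727 of 15842 protein-coding genes (10.9%). In the members it lay mostly just after the start: 11 of 34 (32.4%) had it within the first 50 transcribed bases, against 1.28% of protein-coding genes, and 5 of 34 (14.7%) had it upstream, against 9.73%. EBNA1BP2, which has more than 1 window, was counted in both, and the E-box of RRP9 spans the start and was counted in neither. Sites of members with and without a call follow, with the E-box in capitals, each on the strand of its gene.
FBL (chr19:39846356-39846385): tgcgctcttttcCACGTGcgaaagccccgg
NOL6 (chr9:33473894-33473923): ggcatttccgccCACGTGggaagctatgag
BYSL (chr6:41921515-41921544): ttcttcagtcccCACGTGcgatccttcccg
PNO1 (chr2:68157885-68157914): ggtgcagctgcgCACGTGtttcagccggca
WDR43 (chr2:28894658-28894687): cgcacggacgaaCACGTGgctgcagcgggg
GNL3 (chr3:52686026-52686055): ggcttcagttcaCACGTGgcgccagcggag
DDX21 (chr10:68956604-68956633): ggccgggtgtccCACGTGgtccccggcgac
UTP20 (chr12:101280083-101280112): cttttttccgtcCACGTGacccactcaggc
In WDR43 the site begins at transcribed base 4, in FBL and GNL3 at base 7, in PNO1 at base 10 and in NOL6 at base 14. In UTP20 and DDX21 it begins 10 and 31 bases before the start. Members with the E-box were found on both sides of the mini-bulk comparison: 2 rose, 4 fell and 9 did not pass, with a median of -0.64 in log2. Of those without it 2 rose, 9 fell and 7 did not pass, with a median of -1.02. A match is a description of these letters, and no binding was measured.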

How the data were processed

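The 12 MATQ-seq libraries measure total RNA of HCT116 cells. The values the authors deposited are estimated counts without scaling, for which the submitters' processing notes name kallisto 0.46.2. For build, annotation and strand, the sources used here give nothing. Values were rounded to whole numbers. The whole mini-bulk table was fitted in R 4.3.3 with edgeR 4.0.16 (TMM, filterByExpr, quasi-likelihood test), a threshold of 0.05 was set on Benjamini-Hochberg adjusted values, and the code was tested on simulated data. Single cells carried no test: CPM was computed from counts summed over cells, 1 CPM was added, and log2 ratios were set against the median of all genes. Shares and detection used exact two-sided permutation tests (SciPy 1.17.1). GC content and length are those of GENCODE v29 principal transcripts. Alternatives were other scalings and filters, DESeq2 1.42.0, a GC correction, replicate number as a block and left-out libraries.

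Named in full were, in mini-bulk, up to 6 members past the threshold each way by fold and the 2 most abundant of each role. In single cells these were the 5 highest and 5 lowest folds among members with at least 100 counts, and 5 with the largest cell difference shared by both groups. The members and lists were chosen with earlier results of these data known. The groups share replicate numbers of unstated meaning. In single cells, same-numbered libraries deviated together (0.917 to 0.927 in each of 4 pairs), so the numbers were taken to pair them, from the data alone.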

Additional observations from a re-analysis of the deposited data

Results flagged for a closer look

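Among 80 sets of 4 single cells (40 members in each group), 8 held a cell whose gap to the nearest other cell, over the whole range, passed Dixon's 95% limit of 0.829 for 4 samples, and chance flags about 1 in 20 sets. Levels are non-rRNA CPM.

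High values were those of NOP10 in DASHed cell 1 (33.1 against 0 to 3.74 in the other 3), WDR75 in DASHed cell 4 (32.6 against 3.74 to 7.0), DDX10 in DASHed cell 2 (9.80 against 0 to 1.23), LTV1 in DASHed cell 3 (25.2 against 2.45 to 5.92), DDX47 in untreated cell 1 (65.9 against 1.58 to 1.99) and WDR12 in untreated cell 2 (68.4 against 8.12 to 16.7). Low values were those of RRP9 in untreated cell 4 (37.4 against 92.8 to 97.0) and NOP2 in DASHed cell 4 (35.5 against 119 to 130). The library of the same number in the other group was also the highest for NOP10, WDR75, DDX10, DDX47, WDR12 and LTV1, and also the lowest for RRP9 and NOP2. For LTV1 this was narrow, with 36.3 in untreated cell 3 and 34.4 in untreated cell 1. No member had both mini-bulk groups apart in one direction and all 4 same-numbered single-cell ratios in the other, on the non-rRNA scale.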

How the results depend on the processing

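The 6 rises and 15 falls in mini-bulk became 22 and 0 under scaling to total counts alone, 2 and 1 with the GC correction, and 12 and 22 with replicate number as a block. Among all genes 66.6% rose and 1.37% fell under total counts, 1.76% and 2.29% with the GC correction, and 23.4% and 30.2% with the block. With the block and the GC correction together the members' rises and falls became 9 and 7, where 8.17% of all genes rose and 8.08% fell. With the DESeq2 Wald test they became 6 and 8, where 2.77% of all genes rose and 3.81% fell. The members' median log2 fold change of -0.84 became 1.18 under total counts, -0.02 with the GC correction, -0.0195 with block and GC correction, and -1.01 to -0.36 over left-out libraries. Other filters and scalings kept all 3 within 1.5 times or the replicate spread. The median of all genes, 0.03, did move, to -0.78 with no filter on low counts (members -0.80) and to -0.63 with DESeq2 (members -0.69). Of the earlier 21 calls 2 remained with the GC correction and 14 with DESeq2. Calls with a library left out are not given, because a group then holds only 1 library. Whether the rises and falls hold without each library is therefore not shown. The 2 mini-bulk pairs, whose same-numbered deviations correlated at 0.453, are too few to establish pairing.

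Single members turned as follows. Under total counts the log2 fold changes were 0.92 for NCL, 1.75 for NOP56, 0.54 for NOP58, 0.77 for DKC1, 1.40 for UTP4, 0.75 for UTP20, 1.21 for HEATR1, 1.25 for WDR43, 1.16 for TSR1, 0.084 for DDX18 and 1.04 for BRIX1. With the GC correction they were 0.038 for NOP58, 0.12 for UTP20, 0.67 for HEATR1, -0.033 for NOL6, -0.016 for RRP12 and 0.29 for BRIX1. With replicate block and GC correction they were 0.0396 for NOP58, 0.12 for UTP20, 0.66 for HEATR1, 0.89 for WDR43, -0.0337 for NOL6, -0.01105 for RRP12 and 0.28 for BRIX1. In single cells NIP7, at -1.12, ranged from -1.92 to 0.40 over left-out cells, above 0 only without untreated replicate 2.

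The ratio of summed shares, 3.62, was 2.50 outside rRNA genes, 0.969 when the lincRNA genes inside 18S rRNA were also left out, 3.62 as a mean over same-numbered pairs (replicate block) and 3.36 to 3.91 over left-out libraries. The ratio of members seen, 1.01, was 1.075 at 5 counts, 0.9875 without thinning, 0.9875 with rRNA left out first and 1 to 1.03 over left-out libraries. The single-cell median of -0.07 became -0.16 with a pseudocount of 0.5 CPM, 0.14 with one of 5 CPM, -0.66 over genes with at least 100 counts, 0.81 over genes with at least 1 count, -0.64 against genes near in expression, 0.021 against genes near in GC content, -0.43 on the non-rRNA scale, 0.25 with the replicate block and -0.1803 to 0.13 over left-out cells. The cause of these moves was not tested. Depth limits the scarcer members: NOP10, DDX10, DDX47, NIP7 and RRS1 each had cells at 0 counts.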
